A study of Mus musculus with 12 samples.

Results

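The *Meis*, *Pbx* and *Pknox* genes encode the TALE homeodomain cofactors of Hox proteins, and 8 of them were followed here: *Meis1*, *Meis2*, *Meis3*, *Pbx2*, *Pbx3*, *Pbx4*, *Pknox1* and *Pknox2*. They were chosen by name and found by NCBI gene identifier, each on 1 line of every table, out of 45777 genes in all. RNA came from the ventral spinal cord of mouse embryos at E12.5, dissected at the brachial (forelimb) or lumbar (hindlimb) level and trimmed around the *Hb9::GFP* reporter, which labels motor neurons (MNs). At each level 3 libraries came from *Isl2* +/- embryos (heterozygotes) and 3 from *Isl2* KO embryos, which gave 4 groups and 12 libraries. The heterozygotes carry 1 intact *Isl2* allele, so no wild-type embryo was among the controls. The KO is a germline allele in which a neomycin cassette takes the place of exons, so *Isl2* is missing in every cell of the embryo and not in MNs alone. The tissue was not sorted, and every value below is an average over MNs, interneurons, progenitors and the other cells of the trimmed piece. In such bulk RNA, fewer cells of a type and less RNA per cell cannot be told apart.

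TALE stands for the 3 amino acid loop extension that these proteins carry within the homeodomain, the DNA-binding fold they share with Hox proteins. Meis and Pknox (also known as Prep) proteins bind Pbx proteins directly, and the pair or a trio with a Hox protein binds DNA with more selectivity than the Hox protein alone. In the spinal cord Hox proteins set the column and pool identity of MNs along the body axis, and limb level MNs depend on this for the lateral motor column (LMC) that innervates the limb. *Meis* genes are also known as targets of retinoic acid, a signal made by limb level MNs.

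The coding stretches below are shown because they hold what makes the 8 genes 1 class and separates the 3 families. Each runs 5′ to 3′ on the coding strand over 111 bases, from the codons before the loop to the recognition helix of the homeodomain, and was read from the GRCm38 genome with the GENCODE M21 transcripts. The capitals mark first the 3 codons of the loop and then 4 codons of the helix that contacts DNA. Shown are the members on which the results below turn, with *Pknox1* for the third family.
Meis1: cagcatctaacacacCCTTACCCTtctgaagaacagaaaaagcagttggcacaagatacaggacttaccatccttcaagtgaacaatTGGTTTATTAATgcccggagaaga
Meis3: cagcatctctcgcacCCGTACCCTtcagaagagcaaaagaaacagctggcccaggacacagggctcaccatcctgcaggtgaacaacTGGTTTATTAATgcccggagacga
Pbx2: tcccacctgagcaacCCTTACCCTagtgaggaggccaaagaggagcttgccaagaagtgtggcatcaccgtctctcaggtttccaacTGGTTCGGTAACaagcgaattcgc
Pbx3: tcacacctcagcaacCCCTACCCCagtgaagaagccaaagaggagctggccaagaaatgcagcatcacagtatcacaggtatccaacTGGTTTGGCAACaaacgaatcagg
Pknox1: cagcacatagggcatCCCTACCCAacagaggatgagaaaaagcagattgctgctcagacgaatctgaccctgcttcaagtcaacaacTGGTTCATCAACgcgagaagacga

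All 8 stretches could be aligned without a gap. The 3 *Meis* stretches shared 82.9% to 84.7% of their bases with each other, the 3 *Pbx* stretches 82.0% to 82.9%, and the *Pknox* pair 77.5%. *Meis* and *Pknox* stretches shared 64.9% to 73.0% of bases, whereas *Pbx* stretches shared 48.6% to 56.8% with *Meis* and 50.5% to 55.9% with *Pknox*. The third of the 4 capital helix codons was ATT or ATC in every *Meis* and *Pknox* gene and GGT or GGC in every *Pbx* gene. The gene structure followed the same division: in *Meis* and *Pknox* genes the stretch was spread over 3 exons, which held 12, 77 and 22 of its bases, and in *Pbx* genes over 2 exons, which held 78 and 33. In *Meis3*, on the plus strand, the main piece lay in exon 9 at chr7:16183791-16183867. In *Pbx2*, also on the plus strand, it lay in exon 5 at chr17:34594640-34594717.

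The genes lie apart on 6 chromosomes (GRCm38 coordinates, as in the tables) and differ widely in span. *Pbx2* is the shortest, with 5.14 kb at chr17:34592259-34597400, and *Meis3* has 12.499 kb at chr7:16174012-16186510. *Pbx4* has 39.8 kb at chr8:69832476-69872292, *Pknox1* has 43.0 kb at chr17:31564722-31607693, and *Meis1* has 139.2 kb at chr11:18880428-19019651. *Pbx3* spans 200.6 kb at chr2:34171457-34372045, *Meis2* spans 206.3 kb at chr2:115861264-116067537, and *Pknox2* is the longest. *Pknox2* is on chromosome 9 with *Isl2*, and the ends of the pair lie 18.4 Mb apart. No gene on the same strand overlapped any of the 8. On the opposite strand lncRNA genes overlapped *Meis1*, *Meis2* and *Pknox2*, with a highest mean of 2.298 TPM, and whether reads were counted by strand was not stated.

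All 8 genes were read in every library, and they fell into an abundant and a scarce set. Levels are given as TPM, a measure of transcript abundance per unit of length on which genes can be compared, after a rescaling that sets the typical gene equal between libraries. Over the 12 libraries *Meis2* averaged 137.5 ± 12.7 TPM (SD, n = 12), *Meis1* 122.0 ± 7.78, *Pbx3* 107.0 ± 9.23 and *Meis3* 98.5 ± 18.0. These 4 genes stood above more than 91% of the protein-coding genes that averaged at least 0.5 TPM. *Pbx2* averaged 50.3 ± 7.42 TPM, *Pknox1* 23.2 ± 1.48, *Pknox2* 7.60 ± 1.60 and *Pbx4* 6.50 ± 0.808. The median protein-coding gene of that set averaged 16.0 TPM, so *Pknox2* and *Pbx4* were below it.

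Within a family the order was steady for *Meis2* over *Meis1*, which held in 12 of 12 libraries although the ranges of the pair overlapped. *Meis1* exceeded *Pbx3* in 11 of 12 libraries. *Pbx3* exceeded *Meis3* in 6 of 6 brachial libraries but in 3 of 6 lumbar libraries, so the place of *Meis3* in the order changed with the level. *Meis3*, *Pbx2*, *Pknox1* and the scarce pair were separated from one another in all 12 libraries. *Pknox2* and *Pbx4* were not, with *Pknox2* the higher in 8 of 12.

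**Figure D1:**
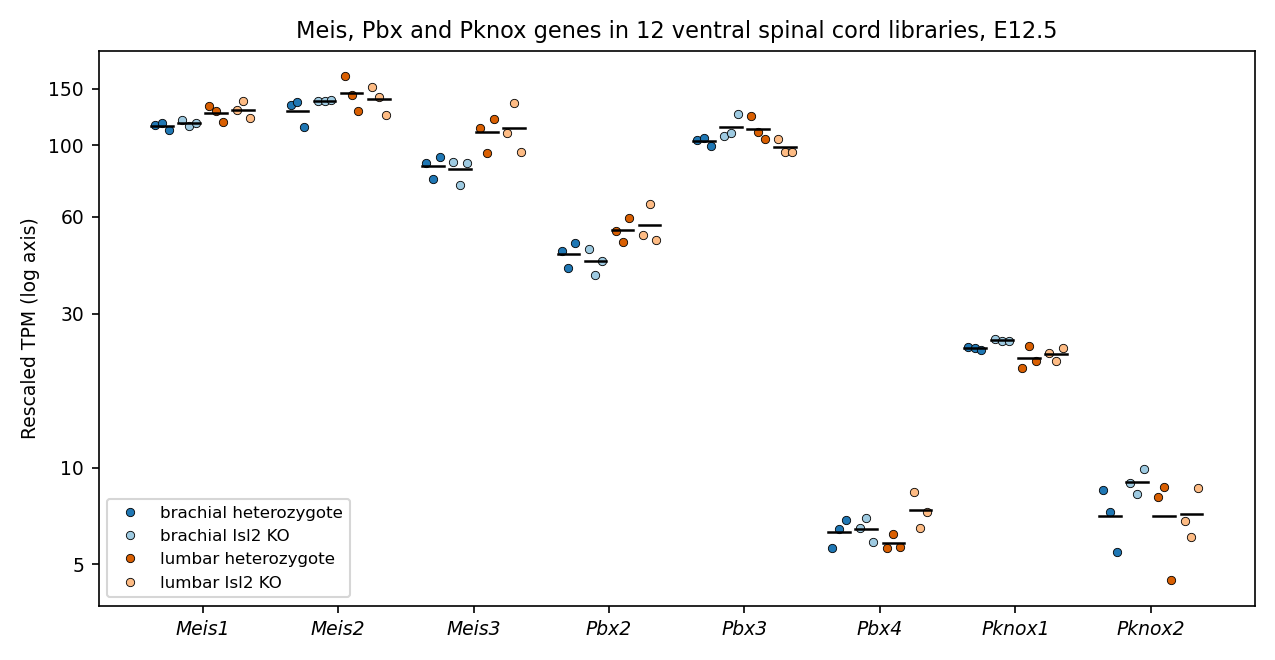
Rescaled TPM of the 8 TALE genes on a log axis, with 1 point for each library, 3 libraries a group, and a bar at each group mean. *Meis2*, *Meis1*, *Pbx3* and *Meis3* lie between 75.4 and 164.3 TPM, *Pbx2* and *Pknox1* below them, and *Pknox2* and *Pbx4* under 10 TPM. The lumbar points of *Meis3* and *Pbx2* lie above all of their brachial points.

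Library facts bear on these values as follows. Aligned sequence ranged from 4.49 to 6.64 Gb, with the third brachial KO library the lowest, and rescaling factors from 0.896 to 1.25, with the second brachial KO library the highest. Expression of *Xist* and of Y-linked genes marked 1 of 3 libraries as female in each group except the lumbar heterozygotes, where 2 of 3 were. The methods name 3 heterozygote and 3 KO animals as the source of the brachial and lumbar cords, and the sample sizes are given as 3 animals a group, with the group not defined. Each genotype has 6 libraries, so the number may hold for each level or for both together. By their sex the heterozygote libraries of the levels cannot come from the same 3 embryos, but some brachial and lumbar libraries may share an embryo. The level tests treat all 12 libraries as independent, and their p-values are open to that doubt.

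The level comparison asked whether the cofactors differ between the forelimb and hindlimb segments, where different *Hox* genes are expressed. *Meis3* and *Pbx2* were higher in the lumbar cord, by 30.3% and 23.6%, and were the only 2 of the 8 past the test (limma, adjusted p under 0.05 over all genes). On the rescaled values every lumbar library was above every brachial one for both genes, which fixes the same order within each genotype. The other 6 genes did not pass. In this comparison 3095 of 16698 genes passed (18.5%), 8.91% as higher and 9.62% as lower in the lumbar cord, so 2 of 8 members is near that background. The median log2 difference was 0.07 over the 8 members and 0.01 over all genes tested.

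*Meis3* was read at 88.2, 78.8 and 92.0 TPM in the brachial heterozygotes and at 88.8, 75.4 and 88.4 TPM in the brachial KO libraries. In the lumbar cord it was read at 113.6, 94.7 and 121.1 TPM in heterozygotes and at 109.3, 135.9 and 95.7 TPM in KO libraries. Every lumbar library was above every brachial one, and the lumbar libraries were the more spread. The lumbar libraries marked female, at 113.6, 121.1 and 135.9 TPM, were all above those marked male, whereas in the brachial cord the sexes overlapped. With sex as a term the log2 level difference was 0.27 in place of 0.34 among heterozygotes and 0.42 as before among KO libraries. The log2 difference was 0.38 with a 95% interval of 0.19 to 0.58 (SE 0.09, limma adjusted p = 0.0113), and an exact permutation test of 6 against 6 libraries gave p = 0.00217, two-sided and the smallest it can give. Groups of 6 without overlap occurred for 8.31% of all genes tested.

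*Pbx2* was read at 46.9, 41.7 and 49.8 TPM in the brachial heterozygotes and at 47.7, 39.7 and 43.9 TPM in the brachial KO libraries. The lumbar values were 54.2, 50.2 and 59.7 TPM in heterozygotes and 52.8, 66.0 and 50.9 TPM in KO libraries. Again no brachial library reached the lumbar range, though the highest brachial and the lowest lumbar libraries were close. Here too the lumbar libraries marked female, at 54.2, 59.7 and 66.0 TPM, were all above those marked male. The log2 difference was 0.31, with a 95% interval of 0.13 to 0.48 (SE 0.08, limma adjusted p = 0.0179, exact permutation p = 0.00217).

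Both calls depended on the rescaling. With TPM as deposited, where the median gene moved by -0.12 on the log2 scale between levels, the difference was 0.24 for *Meis3* (adjusted p = 0.0679) and 0.17 for *Pbx2* (adjusted p = 0.105), and neither passed. Both differences were still positive, in the opposite direction to the median gene. The lack of overlap was lost too: on that scale the lowest lumbar and the highest brachial library were at 87.1 and 96.2 TPM for *Meis3* and at 46.3 and 49.6 TPM for *Pbx2*, and the exact permutation p was 0.039 for *Meis3* and 0.0325 for *Pbx2*. Leaving out any 1 library kept both calls.

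The level differences of *Meis3* and *Pbx2* were also read within each genotype. Among heterozygotes the log2 difference was 0.34 for *Meis3* (adjusted p = 0.124) and 0.25 for *Pbx2* (adjusted p = 0.193). Among KO libraries it was 0.42 for *Meis3* (adjusted p = 0.119) and 0.36 for *Pbx2* (adjusted p = 0.128). With 3 libraries a group no member passed in either genotype, while 2.94% of genes passed among heterozygotes and 1.77% among KO libraries. Among heterozygotes 3 of 8 members had no overlap between levels (*Meis1*, *Meis3* and *Pbx2*, all higher in the lumbar cord), as had 25.9% of genes. Among KO libraries 5 of 8 had none, the same 3 genes and, lower in the lumbar cord, *Pbx3* and *Pknox1*, as had 29.2% of genes. With TPM as deposited, *Meis3* and *Pbx2* were without overlap among heterozygotes, and *Pbx3*, *Pknox1* and *Pknox2*, all lower in the lumbar cord, among KO libraries. On that scale the median gene was itself lower in the lumbar cord, by -0.04 among heterozygotes and -0.21 among KO libraries (log2). The share of all genes without overlap was not computed for deposited TPM. An exact test of 3 against 3 cannot go below p = 0.1.

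*Meis1* came next, at the edge of the threshold. Its brachial values were 115.6, 117.7 and 111.8 TPM in heterozygotes and 120.2, 115.2 and 117.6 TPM in KO libraries. Its lumbar values were 132.3, 128.3 and 117.9 TPM in heterozygotes and 128.4, 137.1 and 121.8 TPM in KO libraries. The brachial libraries lay close together, and 5 of 6 lumbar libraries were above all of them. Its log2 difference was 0.13, with a 95% interval of 0.04 to 0.23 (limma adjusted p = 0.0511, exact permutation p = 0.00433), and was the same within each genotype to the second decimal. The call turned on the set of genes tested: with protein-coding genes only the adjusted p was 0.0357, and with a filter at a mean of 1 TPM it was 0.0490. It also passed without the third lumbar heterozygote library (adjusted p = 0.0416) and without the third lumbar KO library (adjusted p = 0.0412). With TPM as deposited the log2 difference was -0.01.

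*Pknox1* leaned the other way. It was read between 23.24 and 24.99 TPM in brachial libraries, with a median of 24.2 TPM, and between 20.4 and 23.8 TPM in lumbar ones, with a median of 22.0 TPM. The ranges overlapped, and 4 of 6 lumbar libraries lay below every brachial one. Its log2 difference was -0.12, with a 95% interval of -0.23 to -0.02 (limma adjusted p = 0.0964, exact permutation p = 0.0195). It passed with TPM as deposited, at -0.26 (adjusted p = 0.0347), and without the second lumbar heterozygote library, at -0.15 (adjusted p = 0.0454).

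For the remaining members the levels overlapped widely. *Meis2* was read from 114.1 to 138.2 TPM in brachial libraries, with a median of 136.7 TPM, and from 124.5 to 164.3 TPM in lumbar ones, with a median of 142.1 TPM. Its log2 difference was 0.10, with an interval of -0.06 to 0.25 (adjusted p = 0.405). *Pbx3* differed by -0.04 (interval -0.19 to 0.11) and *Pbx4* by 0.04 (interval -0.16 to 0.24). *Pknox2* differed by -0.19, but its interval from -0.55 to 0.18 was the widest of the 8. Leaving out 1 library moved the difference of *Pknox2* from -0.28 (without the second lumbar heterozygote library) to -0.07 (without the third), and that of *Meis2* from 0.04 (without the first lumbar heterozygote library) to 0.14 (without the third lumbar KO library). *Meis2* was also at 0.05 without the third brachial heterozygote library, and *Pknox2* was -0.28 without that library and -0.12 without the second lumbar KO library. In this fit over all libraries the interval bounds farthest from 1 were folds of 0.682 and 1.49, whereas the wider intervals within a genotype reached 1.66 for *Meis3* and 1.56 for *Pbx2* among KO libraries and 1.51 for *Pknox2* among heterozygotes.

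**Figure D2:**
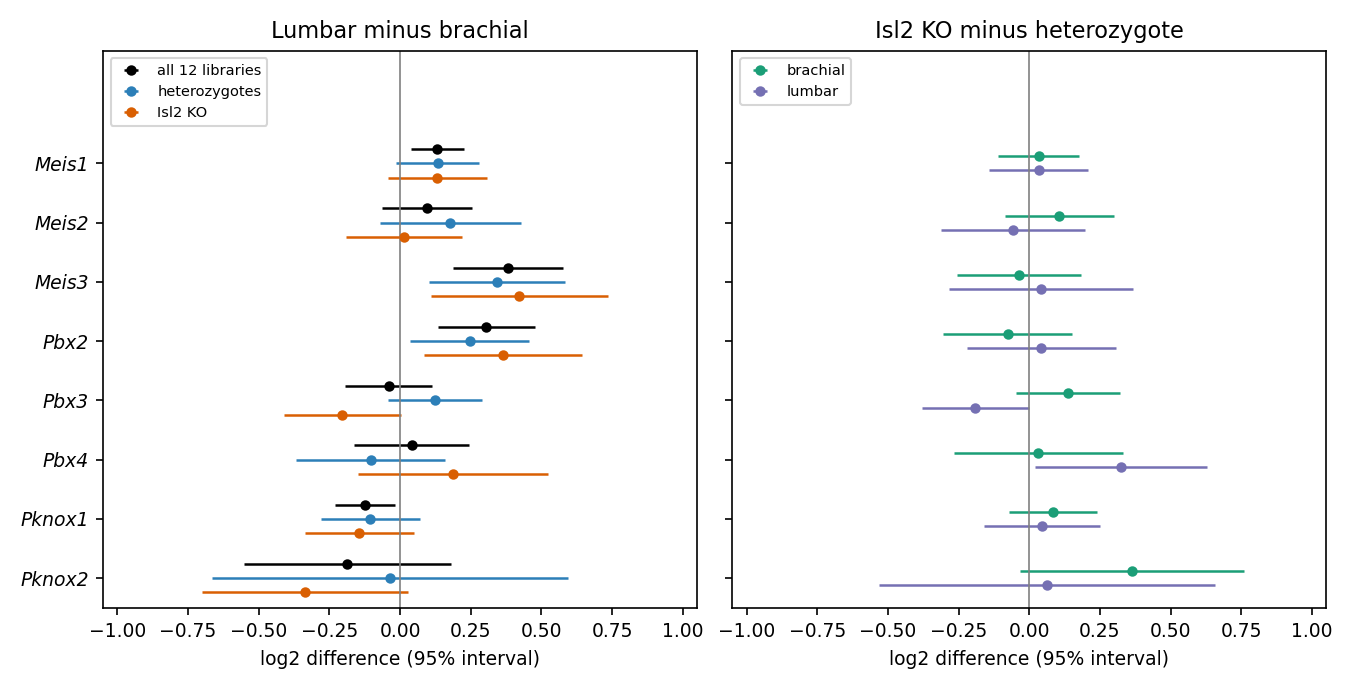
Log2 differences of the 8 genes with their 95% intervals from limma, between levels on the left (all 12 libraries, and each genotype alone) and between genotypes on the right (each level alone). The intervals for *Meis3* and *Pbx2* lie above 0 in all 3 fits of the level difference, and *Meis2*, *Meis3*, *Pbx2* and *Pbx3* point to opposite sides at the brachial and lumbar levels in the comparison of genotypes.

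Summed over a family, the 3 *Meis* genes gave 334.4 ± 10.6 TPM in brachial and 381.6 ± 28.2 TPM in lumbar libraries (SD, n = 6), a mean that was 14.1% higher. The 3 *Pbx* genes followed here gave 159.7 ± 7.70 and 167.9 ± 9.28 TPM. The *Pknox* pair gave 32.2 ± 2.19 TPM in brachial and 29.3 ± 2.64 TPM in lumbar libraries. For all 3 families the sums of the levels overlapped, for *Meis* between a highest brachial sum of 346.1 and a lowest lumbar sum of 342.0 TPM. Some ratios within a family moved with the level and others little. The ratio of *Meis1* to *Meis3* went from 1.37 ± 0.118 in brachial to 1.16 ± 0.147 in lumbar libraries, and that of *Pbx3* to *Pbx2* from 2.43 ± 0.335 to 1.92 ± 0.304, whereas that of *Meis1* to *Meis2* was 0.879 ± 0.0510 and 0.903 ± 0.0681. Brachial and lumbar libraries overlapped in each of these ratios.

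*Meis3* and *Pbx2* also varied together from library to library. The ratio of *Meis3* to *Pbx2* stayed between 1.85 and 2.097 in all 12 libraries, while each gene ranged over 1.80-fold and 1.66-fold. Pearson's r of their log2 values was 0.97 and Spearman's rho 0.99 over 12 libraries, the closest of the 28 pairs of members. It was 0.94 when each library was taken as its deviation from the mean of its group. On the rescaled values the second brachial KO library was the lowest of all for both genes and the second lumbar KO library the highest for both. The former also had the largest rescaling factor of the 12. With TPM as deposited that library was at 94.3 TPM for *Meis3* and 49.6 TPM for *Pbx2*. The lowest on that scale was the second brachial heterozygote library, at 82.9 and 43.9 TPM. Values of a library share its depth, dissection and RNA, so these correlations are descriptive.

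**Figure D3:**
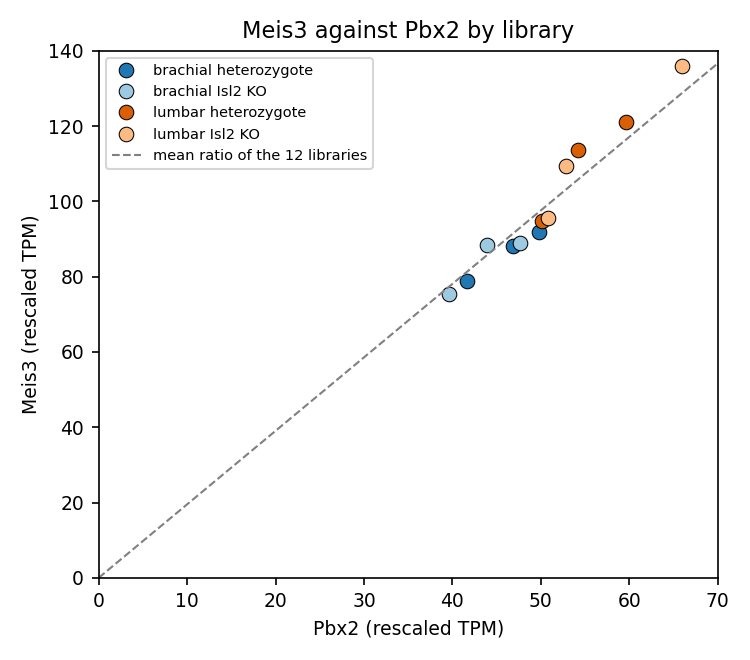
*Meis3* against *Pbx2* in rescaled TPM, with 1 point for each of 12 libraries and a dashed line at their mean ratio of 1.95. The points follow the line, from the second brachial KO library at the lower left to the second lumbar KO library at the upper right.

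No other pair was as close. *Meis1* and *Meis2* had r = 0.71 over the libraries and 0.76 in deviations from group means, and *Meis2* and *Pbx3* had 0.56 and 0.69. *Pknox1* ran against *Meis3*, at -0.83 and -0.73. Among 12548 other protein-coding genes with a mean of at least 1 TPM, those most like each member over the 12 libraries were also listed. For *Meis3* they were *Fignl2* (r = 0.97), *Cpm* (0.97) and *Neurod4* (0.96), the last a neurogenic transcription factor. For *Pbx2* they were *Sf3b2* (r = 0.98), which encodes a splicing factor subunit, *Gucd1* (0.97) and *Npc2* (0.97). For *Meis1* they were *Spsb1* (0.92), *Sema3f* (0.91), a repulsive guidance cue, and *Ccdc40* (0.91). For *Meis2* they were *Adcy6* (0.94), *Tmem94* (0.89) and *Gga1* (0.89). For *Pbx3* they were *Soga3* (0.91), *Sgsm1* (0.88) and *Zfp9* (0.88), and for *Pbx4* *Cmtm4* (0.90), *Epc1* (0.84) and *Ap5m1* (0.77). *Pknox1* was closest to *Spred1* (0.91), *Sertad4* (0.88) and *AI593442* (0.87), and *Pknox2* to *Zfp438* (0.92), *Bcl11a* (0.91) and *Klhl14* (0.89).

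Markers of cell types moved with the level, and their part in the rise of *Meis3* and *Pbx2* was not tested. Of 8 neural progenitor markers, 5 were higher and 2 lower in the lumbar cord: the progenitor filament gene *Nes* rose from 166.6 ± 23.6 to 222.8 ± 25.1 TPM, the Notch target *Hes5* from 75.3 ± 9.87 to 108.0 ± 13.5 TPM, and *Fabp7* and *Olig2* were lower. The list summed to between 2358 and 3263 TPM in brachial and between 2431 and 2907 TPM in lumbar libraries. *Fabp7* was its largest marker by mean, at 1944 ± 298 TPM in brachial and 1474 ± 202 TPM in lumbar libraries. The sums thus mix its fall with the rise of the 5 higher markers. Of 8 MN markers none was higher and 2 were lower, *Prph*, an intermediate filament, at 284.1 ± 35.3 against 48.4 ± 18.1 TPM, and the choline transporter *Slc5a7*. The MN list summed to between 429.9 and 505.7 TPM in brachial and between 184.6 and 314.0 TPM in lumbar libraries, and all of its markers were read. Without *Prph* the other 7 summed to between 181.4 and 206.3 TPM in brachial and between 150.4 and 237.6 TPM in lumbar libraries. Of these, *Mnx1*, *Isl1*, *Chat*, *Lhx3* and *Lhx4* had positive log2 differences of 0.09 to 0.45 that did not pass. *Slc18a3*, at -0.09 and not past the test, and *Slc5a7*, at -1.10, went the other way. Among the ventral interneuron markers *En1* and *Sim1* were higher (sums of the list of 42.6 to 68.3 against 52.4 to 75.2 TPM), and of 9 dorsal ones 1 was lower (*Barhl2*, sums of 45.8 to 70.1 against 40.3 to 63.6 TPM).

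Marker lists of cell types from outside the neural tube were also read, and whether other cells expressed these genes was not tested. The 7 blood markers summed to between 2274 and 6252 TPM over the 12 libraries, and none passed between levels. Of 5 tested endothelium markers, 3 were lower in the lumbar cord, with sums of 56.6 to 78.4 against 46.5 to 59.8 TPM, and of 5 microglia markers 3 were lower, with sums of 11.9 to 20.3 against 5.75 to 12.6 TPM. Mesenchyme and cartilage markers summed to 106.3 to 118.7 against 77.8 to 106.4 TPM, with 2 of 4 tested lower and the sclerotome gene *Pax1* under 0.1 TPM in every library. Schwann cell and crest markers summed to 19.99 to 25.04 against 15.16 to 26.01 TPM, with 1 of 4 tested lower. Most of that sum was *Foxd3*, at 16.8 ± 2.52 against 17.6 ± 3.97 TPM, and the lower marker was *Erbb3*, at 1.56 ± 0.695 against 0.405 ± 0.152 TPM. Sensory neuron markers summed to 3.04 to 7.27 against 4.36 to 13.7 TPM, with *Runx3*, *Scn10a* and *Tlx2* under 0.1 TPM. *Neurog1*, the largest of that list by mean, was the one marker called higher, at 3.00 ± 0.920 against 5.98 ± 2.67 TPM.

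Gene span was another property that moved with the level. The median log2 difference of protein-coding genes went from 0.04 for spans up to 5 kb to -0.16 for spans above 200 kb, and *Pbx2* and *Meis3* are the shortest of the 8. With the trend on span removed in each library, an alternative added after the data were seen, *Meis3* differed by 0.36 (adjusted p = 0.00926) and *Pbx2* by 0.29 (adjusted p = 0.0109). Under the same correction *Meis1* and *Meis2* passed as well, each at 0.21 (adjusted p = 0.0250 and 0.0456), so that 4 of 8 members were called where 19.5% of all genes were.

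The genotype comparison asked whether loss of *Isl2*, a LIM-homeodomain factor of postmitotic MNs, changes the cofactors. *Isl2* itself was read at 8.69, 8.29 and 9.68 TPM in brachial heterozygotes and at 6.01, 7.25 and 4.46 TPM in brachial KO libraries. In the lumbar cord it was read at 10.3, 8.40 and 9.39 TPM in heterozygotes and at 7.30, 6.51 and 8.20 TPM in KO libraries. Every KO library lay below every heterozygote library of its level, a lack of overlap that 20.1% of genes had in the brachial and 9.94% in the lumbar cord, and transcript was still read in all of them. With TPM as deposited the second brachial KO library, which has the largest rescaling factor, was at 9.08 TPM and above the 3 brachial heterozygotes, at 8.61 to 9.04 TPM, while the lumbar groups still had no overlap. The log2 difference was -0.61 in the brachial cord (interval -1.03 to -0.19, limma adjusted p = 0.357) and -0.35 in the lumbar cord (interval -0.65 to -0.05, limma adjusted p = 0.999), so neither passed over all genes. The tables hold 1 value for the whole gene, so exons inside and outside the deletion cannot be told apart.

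None of the 8 members passed the test between genotypes at either level. In limma 1 of 16768 genes passed in the brachial cord (0.00596%) and none of 16620 in the lumbar cord (0.0%), with 13.9% and 4.86% of genes at an unadjusted p under 0.05. By the cut the study used for genes lower in KO, a log2 fold change below -0.5 with an unadjusted p under 0.05, no member passed either, against 0.871% of brachial and 0.794% of lumbar genes tested. With the same cut taken in both directions, which 3.08% and 1.77% of genes passed, no member passed. The median size of the difference was 0.08 for the members and 0.17 for all genes in the brachial cord, and 0.05 and 0.10 in the lumbar cord. The *Meis* genes and *Pbx2* had group means that differed by at most 0.11 on the log2 scale at either level. For *Meis1*, the most precise, the 95% intervals were -0.11 to 0.18 in the brachial cord and -0.14 to 0.21 in the lumbar cord.

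The fitted KO difference had opposite signs at the levels for *Meis2*, *Meis3*, *Pbx2* and *Pbx3*, none of them past the test, and of these 4 *Pbx3* had the largest gap between levels. In the brachial cord it was read at 104.0, 105.5 and 99.9 TPM in heterozygotes and at 106.6, 109.6 and 125.0 TPM in KO libraries. In the lumbar cord it was read at 123.0, 110.2 and 104.8 TPM in heterozygotes and at 104.9, 95.1 and 95.7 TPM in KO libraries. All brachial KO libraries were above the heterozygotes, and in the lumbar cord KO libraries were the lower, with an overlap at a single pair of libraries. The log2 difference was 0.14 (interval -0.05 to 0.32, adjusted p = 0.412) in the brachial and -0.19 (interval -0.38 to -0.002, adjusted p = 0.999) in the lumbar cord. The difference between these effects, tested as an interaction over 12 libraries, was -0.33 (interval -0.57 to -0.08) at an unadjusted p from limma of 0.0131. The interaction did not pass in limma (adjusted p = 0.812), where 0.0% of 16698 genes did and 4.42% had an unadjusted p under 0.05.

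*Pbx3* is among the long genes, and the brachial genotype comparison moved with span. There the median log2 difference went from -0.14 for protein-coding genes up to 5 kb to 0.20 for those above 200 kb, whereas at the lumbar level these medians were -0.04 and -0.02. With the trend on span removed the brachial difference of *Pbx3* was -0.02, the lumbar one -0.19 and the interaction -0.16 (adjusted p = 0.891). Without the third brachial KO library, its highest and the least deeply sequenced, the brachial difference was 0.07, and without the first lumbar heterozygote library the lumbar one was -0.13.

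*Pbx4* and *Pknox2*, the scarce members, gave the largest differences between genotypes. *Pbx4* was read at 5.63, 6.24 and 5.68 TPM in lumbar heterozygotes and at 8.39, 6.48 and 7.26 TPM in lumbar KO libraries. The groups did not overlap, as for 9.94% of genes at that level. It differed by 0.32 on the log2 scale (interval 0.02 to 0.63, limma unadjusted p = 0.0400, adjusted p = 0.999). At the brachial level the same gene differed by 0.03, from 6.31 ± 0.629 to 6.45 ± 0.545 TPM (SD, n = 3), and the interaction was 0.29 (interval -0.09 to 0.68, adjusted p = 0.812).

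*Pknox2* was read at 8.52, 7.29 and 5.46 TPM in brachial heterozygotes and at 8.93, 8.30 and 9.86 TPM in brachial KO libraries. The highest heterozygote lay above the lowest KO library. The fit gave a log2 difference of 0.36 (interval -0.03 to 0.76, adjusted p = 0.367), and 0.19 with the trend on span removed. It was also 0.19 without the third brachial heterozygote library, the lowest of the 6. In the lumbar cord the values were 8.10, 8.70 and 4.46 TPM in heterozygotes and 6.83, 6.08 and 8.65 TPM in KO libraries, with a log2 difference of 0.06 and an interval from -0.53 to 0.66. Its bounds were folds of 0.691 and 1.58, so a 1.5-fold rise lay within that interval and a 1.5-fold fall just outside it.

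*Meis2* and *Pknox1* also had no overlap between genotypes at the brachial level, with *Pbx3* 3 of 8 members, all higher in KO, where 20.1% of genes had none. With TPM as deposited *Meis2* and *Pbx3* overlapped, whereas *Pknox1*, *Meis1*, *Meis3*, *Pbx2* and *Pknox2* did not. On that scale the median gene was itself 0.16 higher in KO on the log2 scale. The share of all genes without overlap was not computed there, so this lack of overlap has no background to be read against. *Meis2* was at 128.1 ± 12.2 TPM in heterozygotes and 137.5 ± 0.659 TPM in KO libraries (SD, n = 3). The lowest of these heterozygotes, at 114.1 TPM, stood apart from the other two. *Pknox1* was at 23.5 ± 0.207 TPM in heterozygotes and 24.9 ± 0.118 TPM in KO libraries, a log2 difference of 0.08 (interval -0.07 to 0.24, adjusted p = 0.538).

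The partners of these cofactors gave a scale for the level differences. Of 39 *Hox* genes, 32 were tested between levels, and 12 were higher and 9 lower in the lumbar cord, with a median size of 0.69 on the log2 scale against 0.15 over all genes. *Hoxd10*, a lumbar gene, averaged 163.7 ± 35.6 TPM in lumbar libraries against 0.00405 ± 0.00993 in brachial ones (SD, n = 6), while *Hoxa11* and *Hoxc10* were listed at 0 in every brachial library. *Hoxc8* fell from 156.5 ± 17.0 to 15.6 ± 1.89 TPM and *Hoxc6* from 83.5 ± 12.8 to 21.8 ± 2.59 TPM. *Hoxb9* and *Hoxb7*, the *Hox* genes with the highest average level, did not pass (log2 differences of -0.22 and -0.27). The largest level difference among the cofactors, 0.38 for *Meis3*, was exceeded in size by 18.6% of all genes tested. Between genotypes no *Hox* gene passed after adjustment at either level (25 and 32 tested), and 1 was higher and 1 lower in lumbar KO by the unadjusted cut of 0.5 in both directions.

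Other TALE homeobox genes were covered by the *Irx*, *Tgif* and *Mkx* families. Of 9 genes tested, 3 were higher and 1 lower in the lumbar cord. *Tgif1* rose from 10.7 ± 1.54 to 15.7 ± 2.34 TPM (adjusted p = 0.00347, limma), *Tgif2* from 19.7 ± 1.79 to 23.9 ± 3.17 TPM, and *Irx3*, a progenitor domain gene, from 14.4 ± 1.26 to 19.6 ± 3.99 TPM. *Irx4* fell from 2.64 ± 0.308 to 1.16 ± 0.281 TPM. None passed between genotypes. *Irx2* averaged 20.02 TPM, with a level difference of -0.09 that did not pass.

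**Figure D4:**
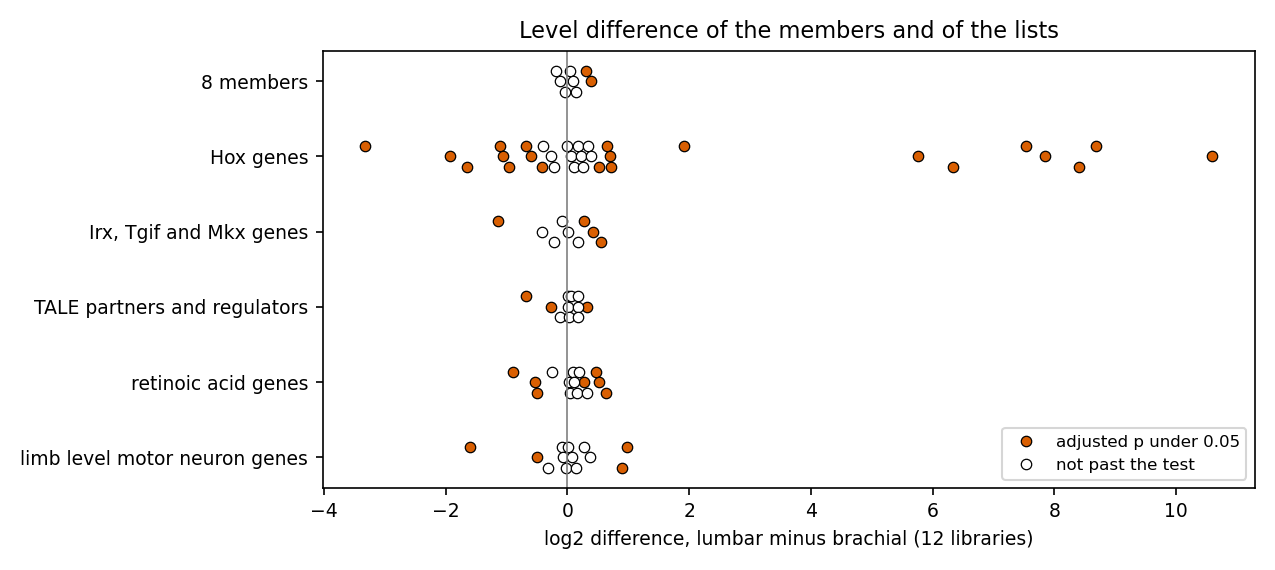
Log2 difference between lumbar and brachial libraries (12 libraries) for each tested gene of the 8 members and 5 lists, filled where the limma adjusted p was under 0.05. *Hox* genes reach 10.6 on the log2 scale, a value set by the 0.1 TPM added to genes at or near 0, whereas all 8 members lie within 0.39 of 0.

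Proteins known to partner or regulate TALE factors formed a list of 12 genes, of which 11 were tested. *Hdac1*, a histone deacetylase, was higher in the lumbar cord, at 26.1 ± 2.31 against 20.9 ± 2.51 TPM (adjusted p = 0.0144, limma). *Pbxip1*, which encodes a Pbx-interacting protein, was lower, at 6.90 ± 0.686 against 8.29 ± 0.708 TPM (adjusted p = 0.0407), and so was *Klf4*, at 0.514 ± 0.181 against 0.868 ± 0.159 TPM. *Hdac3* and *Ncor1*, the corepressor pair with the highest levels on the list, differed by 0.06 and -0.12 and did not pass. None of the 11 passed between genotypes.

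Of 19 retinoic acid genes, 15 were tested between levels, and 4 were higher and 3 lower in the lumbar cord. The receptor gene *Rarb*, itself a retinoic acid target, rose from 56.7 ± 7.08 to 81.5 ± 9.20 TPM (adjusted p = 0.00267, limma), the binding protein gene *Crabp2* from 197.5 ± 29.0 to 309.4 ± 77.1 TPM, and *Rxra* and *Dhrs3* were also higher. The synthetic enzyme gene *Aldh1a2* fell from 111.3 ± 10.0 to 80.4 ± 17.2 TPM (adjusted p = 0.00809), together with the degrading enzyme gene *Cyp26b1* and the retinol transporter gene *Stra6*. *Crabp1*, with the highest mean at 272.1 TPM, differed by 0.02. No gene of the list passed between genotypes.

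Among 14 limb level MN genes, 13 were tested between levels. *Etv4*, an ETS factor of LMC motor pools, fell from 24.5 ± 3.95 to 8.61 ± 3.98 TPM (adjusted p = 3.1e-05, limma) and *Aldh1a2* is on this list too. Those lumbar values pool the genotypes: the level difference of *Etv4* was -1.29 among heterozygotes and -1.901 among KO libraries, and its KO difference was -0.40 in the brachial and -1.005 in the lumbar cord (limma adjusted p = 0.357 and 0.964). *Epha3*, a guidance receptor, rose from 30.4 ± 3.43 to 60.1 ± 9.39 TPM, and *Nkx6-1* rose from 3.50 ± 1.23 to 6.68 ± 2.39 TPM. *Epha4*, the most abundant, did not pass (-0.02). None passed after adjustment between genotypes. By the unadjusted cut taken in both directions *Nkx6-1* was higher in brachial KO and *Etv4* lower in lumbar KO. The 5 sex-linked genes did not pass in any comparison.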

How the data were processed

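Total RNA libraries (ribosomal RNA depleted, stranded kit) were analysed from 12 samples, grouped by their labels. Per the labels, the authors used Trimmomatic 0.38, HISAT2 2.1.0, Bowtie2 2.3.4.1 and StringTie 2.1.3b on mm10. The deposited TPM values are scaled by the authors to a fixed total, the deposited FPKM values are a constant multiple of TPM in each library, and the deposited coverage values are mean per-base depth. No counts were used, so counting error is unknown. Symbols came from RefSeq for 45679 of 45777 identifiers.

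TPM was rescaled by median-of-ratios factors, since a few small RNAs held 23.7% to 38.2% of TPM. After adding 0.1, log2 values of genes with a mean of at least 0.5 TPM entered limma 3.58.1 (R 4.3.3) fits (eBayes with trend, Benjamini-Hochberg over all genes), with genotype as a term for level. The study's DESeq2 test needs counts and was not run. The code was tested on simulated data. P-values measure the spread between libraries.

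Members, lists and tests were chosen with earlier results of these data known. Named are the 8 members, *Isl2*, in each list up to 4 genes a direction past the test by smallest p and up to 2 of highest mean, and for each member the 3 most correlated genes. A few markers were named after their values were seen. Other TALE genes than those named, and some cell type markers, are not reported here. Alternatives were other pseudocounts, filters, scalings and gene sets, coverage, eBayes without a trend, replicate number or sex as a term, all libraries in one fit, leaving out each library, and, added later, trends on gene span and GC content.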

Additional observations from a re-analysis of the deposited data

Results flagged for a closer look

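*Meis2* in the third brachial heterozygote library, at 114.1 TPM, lay far below the other 5 brachial libraries, of which the nearest was at 133.8 TPM. The gap took 0.816 of the range of the 6 libraries, beyond Dixon's 95% critical value. It was 1 of 16 sets of 6 libraries searched, and about 1 such set in 20 passes by chance. Without that library the brachial KO difference of *Meis2* was 0.03 in place of 0.11 on the log2 scale.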

How the results depend on the processing

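No member was called between genotypes, or for the difference of the KO effect between levels, under any alternative run. The count of 2 members called between levels over all libraries became 1 with TPM as deposited (*Pknox1*, lower in the lumbar cord, in place of *Meis3* and *Pbx2*; 17.1% of all genes called) and 4 with the trend on gene span removed (19.5% of all genes). In the other 23 alternatives it was 2 or 3, with 8.81% to 24.5% of all genes called. Replicate numbers were checked for pairing. Same-numbered heterozygote and KO libraries deviated from their group means with correlations of 0.08, 0.23 and 0.0096 at the brachial and 0.14, -0.21 and -0.09 at the lumbar level. Across levels they were -0.02, 0.20 and 0.34 for heterozygotes and 0.03, -0.21 and 0.07 for KO libraries, and 3 of these 6 pairs differed in sex. The number was therefore not taken to pair the samples as a set, although single pairs may share an embryo. With the replicate block 1 member, *Meis3*, was called between levels among heterozygotes in place of none, where 3.09% of all genes were called, and the members called over all libraries were the same 2. Of 1024 member values under alternatives, 950 kept direction and side of the threshold, 9 newly passed, 2 no longer passed and 63 changed sign, none of them called.

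The sign changes, all on the log2 scale, were these, and apart from the shift of scale the cause was not tested. With TPM as deposited, which moves the median gene by -0.12 between levels and by 0.16 between genotypes in the brachial cord, the level difference was -0.0077 for *Meis1*, -0.045 for *Meis2* and -0.10 for *Pbx4* over all libraries and -0.091, -0.21 and -0.033 among KO libraries. There the brachial KO difference was 0.14 for *Meis3* and 0.10 for *Pbx2*, and the interaction -0.087 and -0.046. Quantile normalization gave -0.10 for *Meis2* between levels among KO libraries, and 0.028 for *Meis3* and -0.018 for *Pbx4* in brachial KO. With the trend on span removed the level difference was 0.069 for *Pbx3* over all libraries and 0.0034 for *Pknox2* among heterozygotes. The brachial KO differences then were -0.10 for *Meis1*, -0.056 for *Meis2*, 0.010 for *Meis3*, 0.0069 for *Pbx2*, -0.022 for *Pbx3* and -0.0045 for *Pbx4*, and the interaction was 0.14 for *Meis1*, 0.0089 for *Meis2* and 0.0028 for *Pknox1*. With sex as a term the level difference of *Pknox2* among heterozygotes was 0.14, and lumbar KO differences were -0.0049 for *Pknox1* and -0.081 for *Pknox2*. Coverage gave 0.0155 for *Pbx4* between levels among heterozygotes. The interaction of *Meis1*, -0.0002 as reported, was 0.0060 with protein-coding genes only, 0.0155 with coverage, 0.0026 with sex and 0.0017 with the trend on GC content removed.

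Leaving out 1 library in turn moved the level difference from -0.087 to 0.0096 for *Pbx3* and from -0.018 to 0.085 for *Pbx4* over all libraries, from -0.21 to 0.26 for *Pknox2* among heterozygotes and from -0.052 to 0.091 for *Meis2* among KO libraries. It moved the brachial KO difference from -0.10 to 0.041 for *Meis3* and from -0.047 to 0.097 for *Pbx4*. The lumbar KO difference went from -0.015 to 0.074 for *Meis1*, from -0.14 to 0.035 for *Meis2*, from -0.095 to 0.16 for *Meis3*, from -0.073 to 0.11 for *Pbx2*, from -0.0034 to 0.11 for *Pknox1* and from -0.24 to 0.24 for *Pknox2*. The interaction went from -0.048 to 0.041 for *Meis1*, from -0.058 to 0.19 for *Meis3* and from -0.087 to 0.024 for *Pknox1*.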
